A study of Mus musculus with 22 samples.

Results

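Cytosolic ribosomal proteins are the protein parts of the large and the small subunit of the ribosome that translates nuclear mRNAs. Their mRNAs are short, abundant and carry a pyrimidine tract at the 5′ end through which growth signals tune their translation, and many of their genes hold small nucleolar RNAs (snoRNAs) in introns. A snoRNA is released when the host transcript is spliced, and it then guides the modification of ribosomal RNA: H/ACA snoRNAs (Snora genes) guide pseudouridylation and C/D snoRNAs (Snord genes) guide 2′-O-methylation. hnRNP A1 is a nuclear RNA-binding protein with roles in splicing and mRNA transport, and UAG is the core of the sequence it is known to bind.

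The genes were taken by symbol from the protein-coding genes of GENCODE M21 on GRCm38: Rpsa, Rplp0, Rplp1, Rplp2, and Rpl or Rps followed by a number and an optional a, l, x or y. This gave 80 genes of 21951 protein-coding genes on chromosomes, 49 of the large and 31 of the small subunit. The symbol rule leaves out Rps3a1, whose footprints covered 121 to 589 nt in the naive mice and up to 561 nt in the EAE mice. Footprints of 10 female C57Bl/6 wild-type mice were analysed, 3 naive and 7 with experimental autoimmune encephalomyelitis (EAE), an immune-driven model of multiple sclerosis. EAE was induced with the myelin peptide MOG in complete Freund's adjuvant and with pertussis toxin, at 12 weeks of age by the treatment protocol and at 8 weeks by the design text, and the spinal cord was taken 15 days after the first clinical signs. The 3 mild mice had clinical scores of 1.5 (mouse 3), 1.5 (mouse 4) and 1.0 (mouse 7), and the 4 severe mice had scores of 2.5 (mouse 1), 3.0 (mouse 2), 2.5 (mouse 5) and 3.0 (mouse 6), with mouse numbers as the labels give them. A footprint is a stretch of the genome to which RNA crosslinked to hnRNP A1 was assigned after stretches also found in that mouse's input RNA or in a pooled IgG control had been taken away. The lists hold positions only, so the depth behind a footprint is unknown.

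The 3 naive mice had 17119 to 17494 footprints each, the 3 mild EAE mice 9751 to 24433, and the severe EAE mice 2670 (mouse 1), 209 (mouse 2), 31870 (mouse 5) and 673 (mouse 6). Severe EAE mice 1, 2 and 6 thus stood far below all others in footprints. Of the fixed marker lists, neuron genes with a footprint numbered 7 to 8 of 10 in the naive and mild mice and in severe mouse 5, and 1, 0 and 0 in severe mice 1, 2 and 6. The summed covered length of the neuron markers was 3589 to 4801 nt in the naive, 1537 to 2914 nt in the mild and 0 to 7032 nt in the severe mice, and Chat was at 0 throughout. For the microglia and leukocyte markers the sums were 172 to 463 nt, 533 to 2219 nt and 0 to 3408 nt, with 6 of 12 genes (among them Aif1, Cd3e, Cd4, Cd8a and S100a8) at 0 in every mouse. The oligodendrocyte markers summed to 2090 to 7133 nt, 2791 to 6635 nt and 154 to 11908 nt, and the astrocyte markers to 1295 to 3742 nt, 2514 to 5768 nt and 0 to 9544 nt. The part of cell makeup in the results below was not tested, and in whole cords fewer cells of a type and less RNA per cell cannot be told apart.

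Most footprints in ribosomal protein genes lay in coding exons, and a smaller set lay on intronic snoRNAs. Of the 823 footprints in these genes over the 10 mice, 675 (82.0%) had their midpoint in coding sequence, and 62 (7.53%) overlapped an annotated snoRNA. The remaining 86 lay mostly in UTRs. They were 12 to 246 nt long with a median of 88 nt. Examples of sequences that recurred in 5 or more mice are shown from coding exons and from snoRNAs, on the strand of the gene with UAG (written TAG) in capitals, since these stretches carry the results that follow. The snoRNAs were chosen from those hosted by these genes and footprinted in 5 or more of the 10 mice.
Snora7a in Rpl32, chr6:115807975-115808114, minus strand: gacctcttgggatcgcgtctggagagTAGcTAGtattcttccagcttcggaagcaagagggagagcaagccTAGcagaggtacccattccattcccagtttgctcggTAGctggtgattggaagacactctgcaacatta
Snora52 in Rplp2, chr7:141448803-141448939, plus strand: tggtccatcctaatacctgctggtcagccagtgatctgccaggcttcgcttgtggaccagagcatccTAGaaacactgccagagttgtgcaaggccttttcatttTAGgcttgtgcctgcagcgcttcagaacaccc
Snora3 in Rpl27a, chr7:109520120-109520251, plus strand: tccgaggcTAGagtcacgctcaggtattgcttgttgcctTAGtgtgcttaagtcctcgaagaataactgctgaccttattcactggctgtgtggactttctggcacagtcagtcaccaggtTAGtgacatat
Snord15b in Rps3, chr7:99479563-99479707, minus strand: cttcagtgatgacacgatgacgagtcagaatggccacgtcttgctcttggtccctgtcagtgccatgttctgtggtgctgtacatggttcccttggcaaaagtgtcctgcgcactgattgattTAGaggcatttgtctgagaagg

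The coding stretches shown were chosen from those covered in 5 or more mice. That of Rps15, a small subunit protein, was covered in the most mice, with 7 on one base.
Rps15 coding stretch, chr10:80293700-80293876, plus strand: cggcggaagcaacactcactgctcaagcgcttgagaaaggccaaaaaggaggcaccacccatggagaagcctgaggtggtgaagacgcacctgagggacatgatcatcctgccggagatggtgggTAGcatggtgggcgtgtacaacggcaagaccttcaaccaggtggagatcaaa
Rps25 coding exon, chr9:44407988-44408083, plus strand: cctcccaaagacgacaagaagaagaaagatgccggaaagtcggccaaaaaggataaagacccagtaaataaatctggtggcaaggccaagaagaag
Rpl5 coding exon, chr5:107901870-107901939, plus strand: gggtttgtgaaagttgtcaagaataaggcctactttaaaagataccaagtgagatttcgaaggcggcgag
Rpl5 coding stretch downstream of it, chr5:107902022-107902109, plus strand: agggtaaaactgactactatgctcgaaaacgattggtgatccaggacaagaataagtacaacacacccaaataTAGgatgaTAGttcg
The 4 snoRNAs hold 1 to 4 TAG each, and the coding stretches of Rps25 and the first of Rpl5 hold none.

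Most ribosomal protein genes were footprinted in at least 1 mouse. A footprint was found in 76 of the 80 genes, against 45.6% of all protein-coding genes. The 4 without any were Rpl3l, Rpl10l and Rpl39l, which are paralogs of Rpl3, Rpl10 and Rpl39, and Rpl35a. Rps27l, the paralog of Rps27, had footprints in severe EAE mouse 5 alone (131 nt), as had Rpl18, Rpl29, Rpl41 and Rps21. No gene was footprinted in all 10 mice, and Rpl5, Rpl13 and Rpl27a were footprinted in 9. By mouse, 28, 26 and 37 of the 80 genes had a footprint in naive mice 1, 2 and 3, which is 35.0%, 32.5% and 46.3% of them. The mild EAE mice had 50 (mouse 3), 43 (mouse 4) and 61 (mouse 7), all above the naive mice. The severe EAE mice had 21, 4, 74 and 17 (mice 1, 2, 5 and 6), so that severe mouse 5 lay above and the other 3 below every naive mouse. The means were 30.3 ± 5.86 in naive (SD, n = 3), 51.3 ± 9.07 in mild EAE (SD, n = 3) and 29.0 ± 30.9 in severe EAE (SD, n = 4). All protein-coding genes did not follow this order: 17.7%, 24.1% and 19.9% of them were footprinted in the naive and 18.4%, 13.7% and 25.5% in the mild mice. In no mouse was the share of ribosomal protein genes with a footprint below that of all protein-coding genes.

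**Figure D1:**
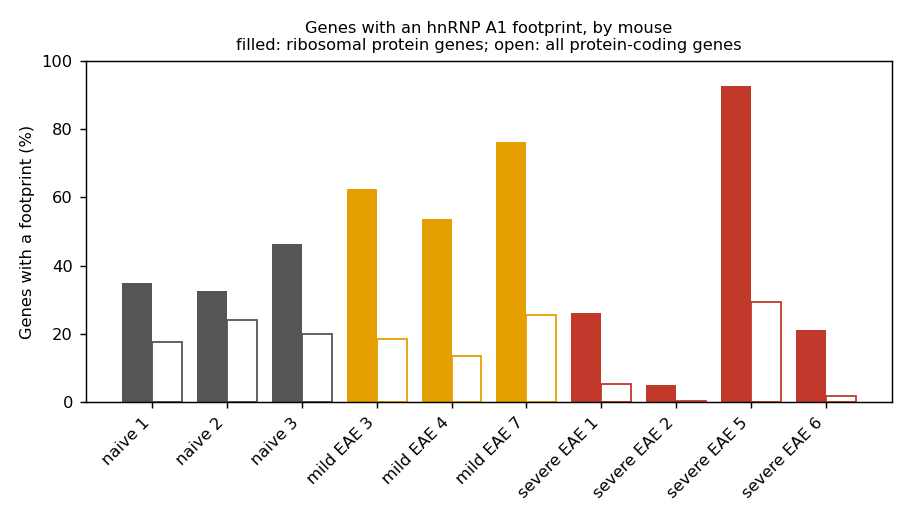
Percent of the 80 ribosomal protein genes (filled bars) and of all protein-coding genes (open bars) with a footprint in each of the 10 mice, coloured by group. The filled bars of the 3 mild EAE mice (53.8 to 76.3%) stand above those of the 3 naive mice (32.5 to 46.3%), and severe EAE mice range from 5.00 to 92.5%.

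Ribosomal protein genes took a larger share of the footprints in every EAE mouse than in any naive mouse. Of the footprints that overlapped an annotated gene, 0.402%, 0.311% and 0.587% lay in ribosomal protein genes in naive mice 1, 2 and 3. The share was 0.834% (mouse 3), 0.941% (mouse 4) and 0.657% (mouse 7) in mild EAE. It was 1.36% (mouse 1), 2.92% (mouse 2), 0.707% (mouse 5) and 4.32% (mouse 6) in severe EAE, where mice 2 and 6 rest on 5 and 26 footprints. The mean was 0.433 ± 0.140% in naive (SD, n = 3) and 1.68 ± 1.41% in EAE (SD, n = 7), and no test was made, since the genes were chosen with results known. Without severe mouse 6 the difference of 1.24 percentage points was 0.804. The groups did not overlap either without the footprints on snoRNAs (0.286 to 0.580% in naive, 0.626 to 3.49% in EAE). They did overlap where only exonic footprints of protein-coding genes were counted, with 0.509 to 0.872% in naive and 0.808% in mild EAE mouse 7. The share of footprints in other protein-coding genes that lay in introns was 28.6 to 43.2% in the naive, 12.1 to 25.2% in the mild and 19.4 to 40.8% in the severe mice, and its part in the difference was not tested. The groups also overlapped for the footprints with no near-identical copy elsewhere in the genome: 0.0583 to 0.114% in naive and 0.0805 to 1.17% in EAE.

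**Figure D2:**
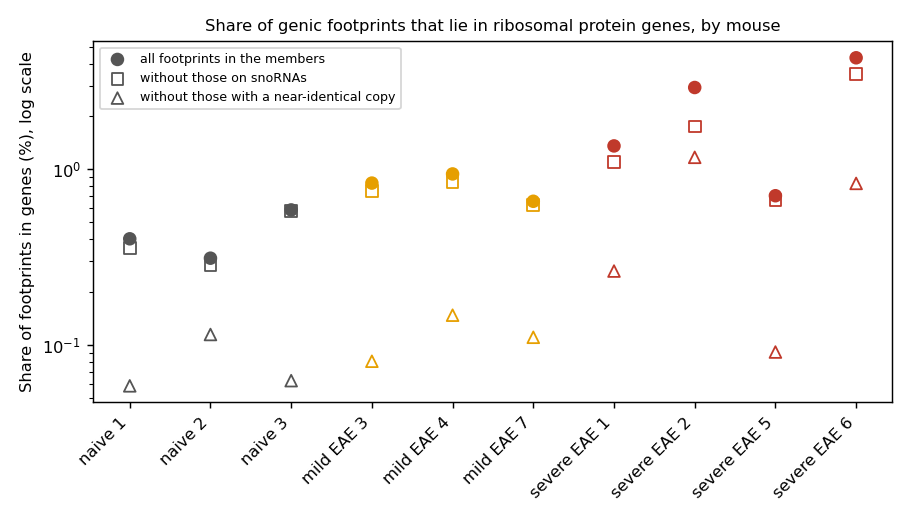
Share of all footprints in annotated genes that lay in ribosomal protein genes, on a log axis, for each mouse (grey naive, orange mild EAE, red severe EAE). Filled circles are all footprints, squares those not on a snoRNA and triangles those without a near-identical copy: the circles of the 7 EAE mice (0.657 to 4.32%) lie above the 3 naive ones (0.311 to 0.587%), and the triangles of the groups overlap.

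The length covered did not separate the groups. Summed over the 80 genes it was 5523, 4217 and 8745 nt in naive mice 1, 2 and 3, 10031, 6629 and 13616 nt in the mild (3, 4 and 7) and 2979, 467, 19148 and 2102 nt in the severe animals (1, 2, 5 and 6). EAE exceeded naive by 1691 nt on average, less than the spread between mice (SD 6812 nt in EAE, n = 7), and without severe mouse 5 the difference was -191 nt. The covered length followed the coding sequence. Per kb of region and averaged over mice, footprints covered 140.0 nt of coding sequence, 10.1 nt of 5′ UTR, 10.3 nt of 3′ UTR, 117 nt of hosted snoRNA and 0.728 nt of the rest of the introns. For the other protein-coding genes the same densities were 19.7, 4.23, 3.17, 61.1 and 0.583 nt. A snoRNA inside an annotated mRNA exon was counted with the exon, as Snora7a was with the 5′ UTR of Rpl32. In each of the 10 mice the coding density of the ribosomal protein genes was above that of the other genes, from 70.4 against 17.4 nt per kb in naive mouse 2 to 35.8 against 0.567 nt per kb in severe mouse 6. The level of each RNA in the input was not analysed here, so the part of abundance in this difference was not tested.

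**Figure D3:**
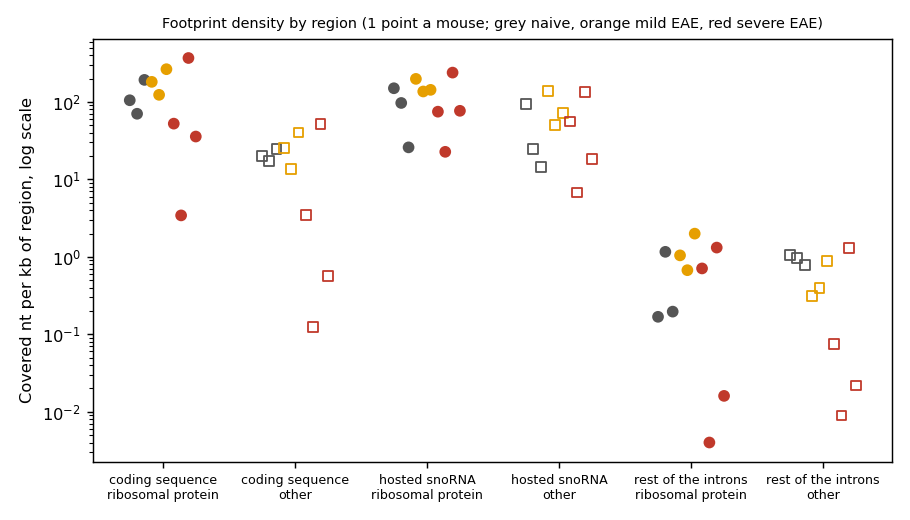
Covered nucleotides per kb of coding sequence, of same-strand hosted snoRNA outside mRNA exons and of the remaining intron, on a log axis. Each mouse is 1 point. Circles are ribosomal protein genes and squares other protein-coding genes: coding sequence (mean 140.0 against 19.7 nt per kb) and hosted snoRNA (117 against 61.1 nt per kb) were covered far above the rest of the introns (0.728 against 0.583 nt per kb) in both sets.

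Footprints in these genes traced spliced mRNA. At least one end lay within 2 nt of an exon end at a splice junction for 707 of 823 footprints (85.9%), and both ends did for 192 (23.3%). In the other protein-coding genes the shares were 56.6% and 13.6%. For 453 footprints the end at the higher coordinate lay at such an exon end, whichever the strand of the gene. Of these, 321 (70.9%) had a second footprint of the same mouse that began at the adjoining exon at higher coordinates. In other genes the share was 82.5%. Rps25, a protein of the small subunit, shows the pattern. Its 96 nt exon was filled from end to end in all 3 mild animals and in severe animals 1 and 5 but in no naive mouse. The covered length of Rps25 was 0, 0 and 80 nt in the naive, 260, 246 and 255 nt in the mild and 251, 0, 338 and 0 nt in the severe mice. Every mild EAE mouse lay above every naive mouse, and 2 severe mice had none. All 20 footprints of Rps25 had a near-identical copy elsewhere in the genome, so the gene and its copies cannot be told apart. In Rpl5, both stretches printed above were covered in the same 5 mice: naive 3, mild EAE 3, 4 and 7, and severe EAE 5. In Rps15 the same internal exon was covered in 7 mice, 2 naive, 2 mild and 3 severe. In severe EAE mice 1 and 6 the Rps15 footprint (157 and 114 nt) ended inside the exon, and in 4 other mice (naive 1, mild 3 and 7, severe 5) it filled all 235 nt. Over all genes a median of 69.6% of the coding sequence was covered in at least 1 mouse, and 5 genes were covered over all of it.

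UAG was less frequent in the coding footprints than in those on snoRNAs. TAG was searched on the strand of the gene, where it cannot overlap itself, and its reverse complement CTA beside it. Coding footprints of ribosomal protein genes held 0.349 TAG per 100 nt, and 25.6% of the 675 held at least 1. The whole coding sequence of these genes held 0.284 per 100 nt, and that of other protein-coding genes 0.564. Footprints of other protein-coding genes, introns included, held 1.18 per 100 nt, and 51.1% of them held at least 1. The 62 footprints that overlapped a snoRNA held 1.49 TAG per 100 nt, and 83.9% of them held at least 1. Of the hosted snoRNAs themselves, 12 of the 19 footprinted and 23 of the 37 not footprinted held a TAG, which is 63.2% and 62.2%. CTA stood at 0.787 per 100 nt in the coding and 1.13 per 100 nt in the snoRNA footprints. A match describes the letters and does not mark a binding site.

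Intronic snoRNAs were covered nearly whole. The 80 genes host 56 annotated snoRNAs on their own strand, in 29 genes, and 19 of them (33.9%), in 14 genes, had a footprint in at least 1 mouse. Of the snoRNAs in other protein-coding genes 26.1% of 322 had one, and of all annotated snoRNA and scaRNA genes 191 of 1558. In 54 of the 57 pairs of a footprint and a hosted snoRNA at least 90% of the snoRNA was covered, and in 46 both footprint ends lay within 10 nt of its ends. Hosted snoRNAs with a footprint numbered 7, 4 and 1 in the naive mice, 10, 7 and 6 in the mild and 5, 2, 10 and 5 in the severe animals, so the groups overlapped. As a share of the footprints in the 80 genes, those on a snoRNA were 11.3%, 8.16% and 1.06% in naive, 9.65%, 9.64% and 4.70% in mild and 19.4%, 2 of 5 footprints, 5.24% and 19.2% in severe EAE. The highest shares were those of severe mice 1, 2 and 6, which had the fewest footprints.

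Single snoRNAs differed in the mice that had them. Snora52 in Rplp2 was covered in 2 naive (1 and 2), 2 mild (3 and 4) and 2 severe mice (5 and 6), over 136 to 137 of its 137 nt. Snora3 in Rpl27a was covered in naive mice 1 and 2, mild EAE mouse 3 and severe EAE mice 1, 5 and 6, over 120 to 132 of 132 nt. Both were thus found in each group. Snord15b in Rps3 was covered over all 145 nt in 3 of 3 naive mice, in mild EAE mouse 7 and in severe EAE mouse 5. Gm26448 in Rpsa was found in naive mouse 1, all 3 mild mice and severe mouse 5. Gm26387 in Rpl5 (2 mild and 2 severe mice) and Snord21 in Rpl5 (2 mild mice and 1 severe mouse) had no footprint in naive mice. The footprints inside Rps2 at Snora78 (mild mice 3, 4 and 7, severe mice 1 and 5) lie in Snhg9 on the opposite strand, and since the lists carry no strand the source cannot be told apart.

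Rpl32, a large subunit protein gene at chr6:115805505-115808747 (minus strand), was the one ribosomal protein gene whose covered length in every EAE mouse exceeded that in every naive mouse. No footprint lay in it in naive mice 1, 2 and 3. It was covered over 250 nt (mouse 3), 142 nt (mouse 4) and 359 nt (mouse 7) in mild EAE. In severe EAE it was covered over 142 nt (mouse 1), 140 nt (mouse 2), 358 nt (mouse 5) and 141 nt (mouse 6). The footprints differed in kind among the mice. Mild mouse 4 and severe mice 1, 2 and 6 had a single footprint of 140 to 142 nt, which covered the whole of Snora7a. Mild mouse 7 and severe mouse 5 had none there and 3 footprints on mRNA exons, and mild mouse 3 had both kinds. These 5 snoRNA footprints lie where one annotated Rpl32 transcript extends its 5′ UTR, while the other transcript splices it out. Without the snoRNA footprints 3 of 7 EAE mice were left with a footprint in Rpl32, and the groups overlapped. EAE exceeded naive by 219 nt on average, with an exact permutation p of 0.0167 and an adjusted p of 0.513 (Benjamini-Hochberg over the 5481 genes tested), so the difference did not pass the threshold. A single gene could not pass on its own, since the exact permutation test cannot go below p = 0.00833 in this contrast.

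**Figure D4:**
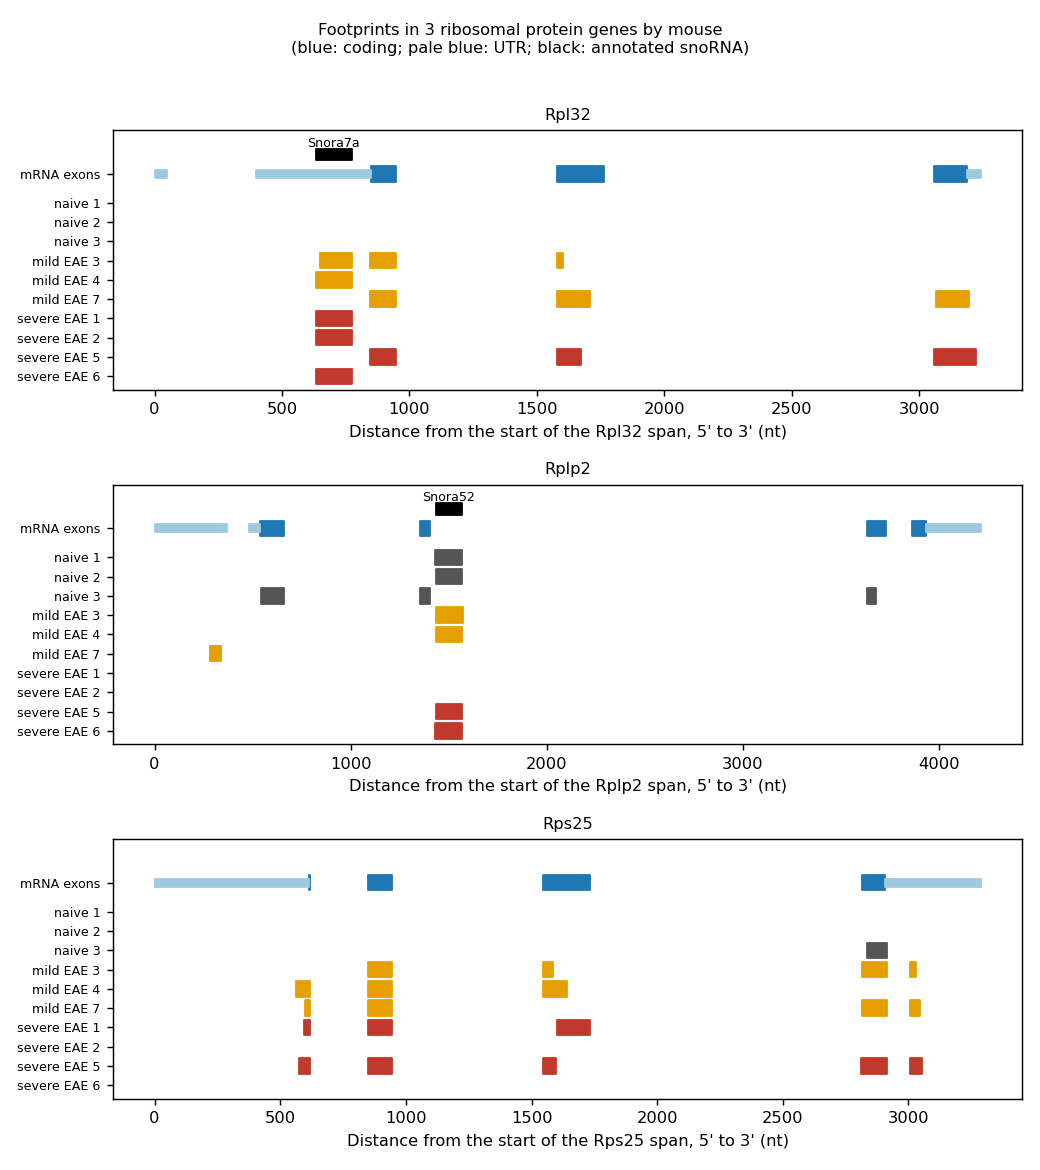
Footprints in Rpl32, Rplp2 and Rps25 by mouse (grey naive, orange mild EAE, red severe EAE) against the distance in nt from the 5′ end of the gene, with coding exons in blue, UTRs in pale blue and annotated snoRNAs in black. In Rpl32 and Rplp2 single footprints coincide with Snora7a (5 EAE mice) and Snora52 (6 mice), while in Rps25 the blocks of 5 EAE mice fill the same 96 nt exon.

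No gene of the whole table passed the exact permutation test after adjustment in any of the 4 contrasts. The 5481 protein-coding genes footprinted in 3 or more mice were tested, 66 of them ribosomal protein genes. With EAE against naive, 0% of all genes had an adjusted p under 0.05 (smallest adjusted p = 0.471, two-sided exact permutation test over 120 splits). By the same exact permutation test it was 0% for severe EAE against naive (smallest adjusted p = 0.814), 0% for mild EAE against naive (smallest 0.944) and 0% for severe against mild EAE (smallest 1). For mild EAE against naive, with 3 mice against 3, the exact permutation test cannot go below p = 0.1, so no gene could pass. In both contrasts with severe EAE the exact permutation test cannot go below p = 0.0286. With EAE against naive the exact permutation test cannot go below p = 0.00833. Over 5481 genes, an adjusted p under 0.05 was then within reach only if many genes shared the lowest p. The lack of calls therefore does not show that no gene differed. At an unadjusted exact p under 0.05, 344 genes differed between EAE and naive. Of all genes tested 0.0182% were higher and 6.26% lower in EAE at that level, and among the 66 ribosomal protein genes 1 was higher, Rpl32, and 1 lower, Rps6 (named after its values were seen). Rps6, the small subunit protein that S6 kinases phosphorylate, was covered over 40, 152 and 287 nt in the naive, 115, 32 and 0 nt in the mild and 0, 0, 77 and 0 nt in the severe mice. EAE was below naive by 128 nt on average (exact permutation p = 0.0333, adjusted p = 0.587), and naive mouse 1 lay within the EAE range. Every EAE mouse lay above every naive mouse in 0.0182% of genes tested, a single gene which was Rpl32, and below in 1.92% (105 genes), none of them ribosomal. Scaled to the total covered length of each mouse these were 0.109% and 3.3% of genes, with Rpl32 again the one ribosomal protein gene above and none below. The median difference between EAE and naive was 25.4 nt over the 66 and -33.1 nt over all genes tested, and 41 of the 66 had a higher mean in EAE.

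The contrasts with one form of EAE share control mice, so their values are given side by side. In mild EAE every mouse lay above every naive mouse for 8 of 66 ribosomal protein genes (12.1%), against 4.73% of all genes tested, and below for none, against 5.36%. Among the 8 were Rpl10a, Rpl17, Rpl28, Rpl32, Rps25, Rps26 and Rpsa, of which Rpl17 is named after its values were seen. Rpsa, which is also known as the laminin receptor, was covered over 308, 0 and 261 nt in naive, 348, 481 and 802 nt in mild and 218, 0, 464 and 0 nt in severe EAE. Rpl28 was at 0 in all naive mice, at 150, 256 and 344 nt in mild and at 149, 0, 419 and 25 nt in severe EAE. Rpl28 was thus apart from naive in 6 of 7 EAE mice. In severe EAE every mouse was above every naive mouse for 0.0182% of genes, Rpl32 alone (unadjusted exact p = 0.0286 and 0.0182% higher at that level), and below for 4.62% of genes, none ribosomal (3.23% lower at an unadjusted exact p under 0.05, again none ribosomal). The median difference over the 66 was 60.8 nt for mild and 1.42 nt for severe EAE against naive, beside 2.67 and -59.3 nt over all genes tested.

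Severe mice lay below every mild mouse for 4 of the 66, among them Rplp0, Rpl13 and Rpl38 (the last named after its values were seen), against 2.63% of all genes (1.66% at an unadjusted exact p under 0.05, with the same 4 among them), and above for none, against 0% of all genes (0% higher at that level). Rpl13 showed 278, 117 and 130 nt in naive, 351, 353 and 225 nt in mild and 57, 0, 57 and 170 nt in severe EAE (exact permutation p = 0.0286, adjusted p = 1). All footprints of Rpl13 were in a region where a read-through gene, Gm20388, overlaps it. Footprint totals were lower in severe mice 1, 2 and 6 than in any mild mouse. Severe mouse 5, which also lay below every mild mouse for these genes, had more footprints than any of them (31870 against 9751 to 24433). The paper describes the samples as similar in sequencing depth. Among the immunoprecipitations, its supplement lists the most mapped unique reads for severe mouse 5 and the fewest for naive mouse 2. The part of depth in this contrast was not tested.

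By subunit, 45 of 49 large subunit and all 31 small subunit genes had a footprint. The large subunit genes with a footprint numbered 17, 17 and 20 in naive, 30, 26 and 37 in mild and 11, 2, 43 and 11 in severe animals (mice in the order above). The small subunit genes numbered 11, 9 and 17, then 20, 17 and 24, then 10, 2, 31 and 6. For both, each mild animal had at least as many as any naive one. The median difference between EAE and naive was 22.1 nt for 39 tested large and 38.3 nt for 27 tested small subunit genes.

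The stalk of the large subunit, which recruits and activates the translational GTPases, is made of Rplp0, Rplp1 and Rplp2. Rplp0 was covered over 210, 0 and 265 nt in naive, 234, 217 and 421 nt in mild and 0, 0, 138 and 0 nt in severe EAE. Rplp1 was covered over 143, 0 and 142 nt, 0, 35 and 116 nt, and 0, 0, 208 and 0 nt in the same order. Rplp2 was covered over 138, 136 and 215 nt, 138, 137 and 56 nt, and 0, 0, 137 and 137 nt. For Rplp2 the near-constant 136 to 138 nt is Snora52, and the mRNA itself was footprinted in naive mouse 3 (215 nt) and mild EAE mouse 7 (56 nt). No member of the stalk passed the threshold in EAE against naive.

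Rpl5 and Rpl11 bind the small ribosomal RNA of the large subunit and restrain Mdm2 when ribosome assembly fails. Rpl5, the gene with the most covered length (2966 nt over the 10 mice), was covered over 252, 184 and 656 nt in naive, 558, 292 and 301 nt in mild and 0, 128, 499 and 96 nt in severe EAE. In severe mice 2 and 6 these were a single footprint each, on Gm26387 and on Snord21. Rpl11 was covered over 0, 0 and 374 nt in naive, 152, 154 and 0 nt in mild and 0, 0, 248 and 0 nt in severe EAE. The naive and EAE ranges of both genes overlapped.

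The other genes with the most covered length were spread over both subunits. Rpl3, which lies near the peptidyl transferase centre, was covered over 325, 161 and 754 nt in naive, 533, 107 and 91 nt in mild and 0, 0, 539 and 0 nt in severe EAE. Rps3, at the mRNA entry channel, was covered over 281, 333 and 302 nt in naive, 0, 97 and 507 nt in mild and 0, 136, 456 and 183 nt in severe EAE. The naive mice were close to each other for Rps3, and 145 nt in each of them was Snord15b. Rpl4, which lines the peptide exit tunnel, was covered over 445, 253 and 335 nt, 282, 122 and 0 nt, and 179, 0, 394 and 128 nt in naive, mild and severe mice. Rpl8 was covered over 0, 264 and 409 nt, 0, 267 and 387 nt, and 164, 0, 547 and 132 nt. Rps2, at the entry channel as well, was covered over 219, 134 and 464 nt, 285, 120 and 147 nt, and 189, 0, 377 and 0 nt. In mild mice 4 and 7 this was a single footprint, the one at Snora78 whose source cannot be told apart. Mild mouse 3 and severe mice 1 and 5 had a footprint there as well. Rps15 was covered over 293, 0 and 246 nt, 381, 0 and 235 nt, and 157, 0, 490 and 114 nt. Rps4x, the X-linked small subunit gene, was covered over 0, 117 and 383 nt, 118, 293 and 198 nt, and 0, 0, 700 and 0 nt. For each of these 7 genes the naive and EAE ranges overlapped.

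**Figure D5:**
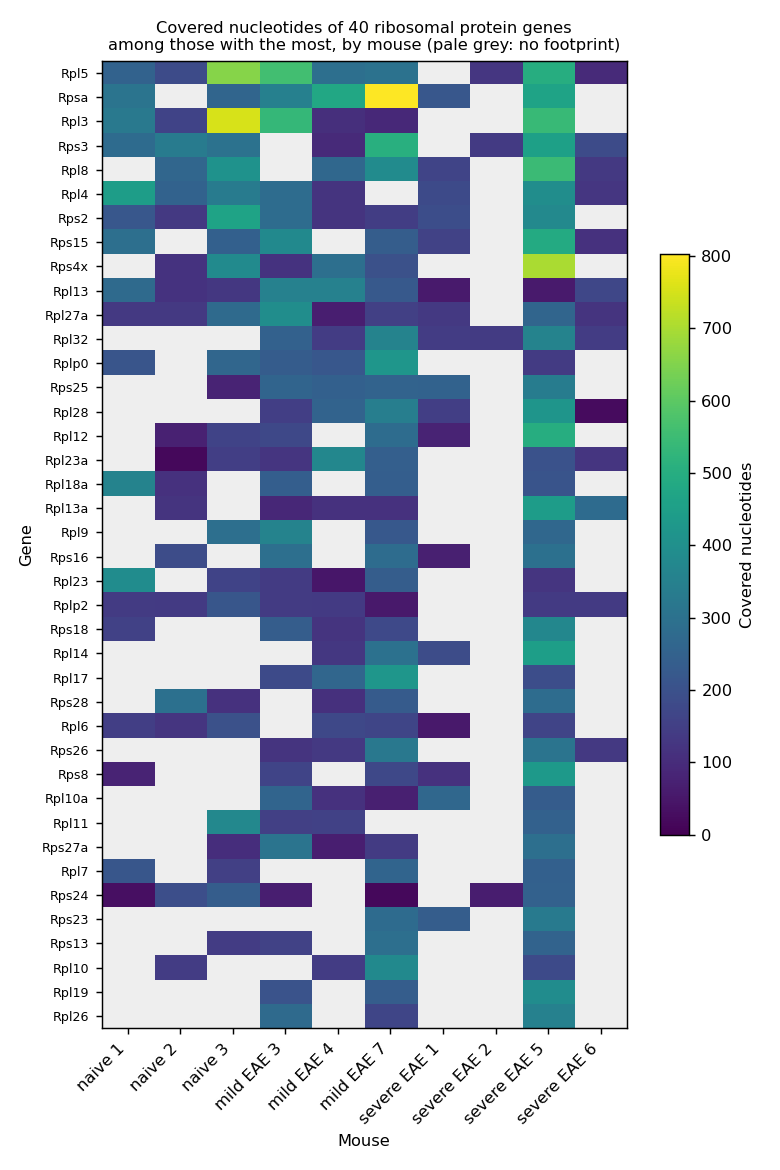
Covered nucleotides (colour scale) of 40 ribosomal protein genes among those with the most, one row a gene and one column a mouse, with pale grey where there was no footprint. The Rpl32 row is empty in the 3 naive mice and filled in all 7 EAE mice, and severe EAE mouse 2 has values in Rpl5, Rps3, Rpl32 and Rps24 alone.

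Stretches shared by mice of one group were the study's own criterion for a high-quality footprint, with more than 1 nt covered in at least 2 mice. Such a stretch was found in 21 of the 80 genes in naive, 49 in mild EAE and 29 in severe EAE, which is 26.2%, 61.2% and 36.2%. Of all protein-coding genes 10.6%, 12.4% and 3.23% had one. The severe group has 4 mice and the others have 3. The 12 genes with a shared stretch in each group included Rpl5, Rpl6, Rpl8, Rpl13, Rpl27a, Rplp2, Rps2, Rps3, Rps15, Rps20 and Rps24. Here and below the counts are by gene, so the stretches of different groups can lie at different places. Rps2 had coding stretches in naive mice, but in mild and severe EAE only the one at Snora78. Rpl5 had coding stretches in naive mice, and in severe EAE only the one on Gm26387. Of all protein-coding genes 1.75% had one in each group, against 15% of the 80. In 13 genes (16.2%), among them Rpl32, Rps25, Rpsa and Rpl12, a stretch was shared in mild and in severe EAE and not in naive mice, against 0.738% of all protein-coding genes. In 20 (25%) it was shared in mild EAE alone, against 4.8% of all. In Rpl7, Rplp1, Rps6 and Rps28 it was shared in naive mice alone, which is 5% of the 80 genes against 3.57% of all. Of the stretches 32 of 37 in naive, 83 of 95 in mild and 34 of 42 in severe EAE were coding, and 3, 8 and 6 overlapped a snoRNA.

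Severe EAE mice 1, 2 and 6 had 62 footprints in ribosomal protein genes together and 13 of these were on snoRNAs. In severe mouse 2 the 5 footprints were on Gm26387 in Rpl5, on Snora7a in Rpl32, on coding sequence of Rps3 (44 and 92 nt) and on the 3′ UTR of Rps24 (63 nt). Severe mouse 6 had 17 genes, with 4 footprints in Rpl13a, 1 of them on Snord32a, 3 in Rps12 and 2 each in Rpl4, Rpl13, Rpl23a and Rps26. Severe mouse 1 had 21 genes, with 3 footprints each in Rpl10a and Rps25 and 2 each in Rpl4, Rpl14, Rpl28, Rps2, Rps23 and Rpsa. Both mice had Rpl4, Rpl8, Rpl13, Rpl27a, Rpl28, Rpl32, Rps12 and Rps15.

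Near-identical copies bear on nearly all coding footprints. Of the 675 coding footprints 624 (92.4%) matched at least 1 other place of GRCm38 at 95% identity or more over 90% of their length, and 432 matched 5 or more. In 494 the same mouse also had a footprint at a matching copy. For footprints on a snoRNA this was so for 10 of 62 with a copy and 6 with a footprint at one. Rpl7a had the most, with up to 132 copies of a footprint, and Rpl8 had none for any of its 19 footprints. Rps3 had a copy for 7 of 23 footprints. Pseudogenes named for ribosomal proteins number 295 in the annotation, and 133 of them had a footprint in at least 1 mouse, 21 to 39 a mouse in naive, 48 to 66 in mild and 0 to 86 in severe EAE. The gene and its copies cannot be told apart for these footprints. Among footprints without a copy, 7, 9 and 5 ribosomal protein genes were footprinted in naive, 11, 10 and 13 in mild and 6, 2, 17 and 5 in severe EAE. With the footprints on snoRNAs left out as well, the numbers were 3, 7 and 5 in naive, 2, 4 and 8 in mild and 1, 1, 11 and 1 in severe EAE. The mild mice then no longer all lay above the naive mice.

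The other genes of translation gave no calls after adjustment. Of 40 translation factors 39 had a footprint and 33 were tested, and Eef1a1, which brings aminoacyl-tRNA to the ribosome, was the one with an unadjusted exact p under 0.05. It was covered over 101, 172 and 165 nt in naive, 140, 0 and 0 nt in mild and 0, 0, 27 and 0 nt in severe EAE (exact permutation p = 0.0167, adjusted p = 0.513). Of 12 genes of ribosome biogenesis and of the control of ribosomal protein mRNAs 10 had a footprint, with none of the 7 tested at an unadjusted exact p under 0.05. Larp1, which binds the 5′ tract of these mRNAs, was covered over 0, 501 and 0 nt in naive, 0, 413 and 1052 nt in mild and 0, 0, 1428 and 0 nt in severe EAE. Of 78 mitochondrial ribosomal protein genes 34 had a footprint, 7, 10 and 8 in the naive, 4, 1 and 15 in the mild and 0, 0, 15 and 1 in the severe mice. The median difference between EAE and naive was 26.1 nt for the tested translation factors and -33.1 nt for the 8 tested mitochondrial ribosomal protein genes.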

How the data were processed

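Spinal cords were crosslinked, RNA bound to hnRNP A1 was immunoprecipitated (clone 9H10 by the labels, clone 4B10 by the methods) and sequenced. Per the labels and the methods, the authors demultiplexed with bcl2fastq 2.19.0.316, trimmed with fastp, assembled reads, aligned contigs to GRCm38 with minimap2 2.17, and used bedtools to subtract stretches also present in the matched input or in IgG pools and to merge the rest. The deposited files hold merged intervals without strand, count or score. Reads from a gene and its copies, and the depth behind an interval, are therefore unknown. Input and IgG libraries were not analysed here.

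The members and gene lists were chosen with earlier results of these data known. Of 136207 footprints 135639 lay on sequences matched by name to GRCm38, and none of these ran past an end. The others lay on 17 other sequence names and were not checked. Footprints were assigned to GENCODE M21 spans by at least 1 nt, and placed by midpoint in exons of protein-coding transcripts. Genes footprinted in 3 or more mice were tested by a two-sided exact permutation test of mean covered nt, adjusted by Benjamini-Hochberg over all genes (NumPy 2.4.6, SciPy 1.17.1). Copies were found with blastn 2.17.0+. Genes were named by rule (the 10 with the most covered length, up to 10 with stretches shared in 2 or more groups, those with naive apart from every EAE mouse, those footprinted in severe EAE mice 1, 2 or 6, those without a footprint, the stalk, Rpl5 and Rpl11, and paralogs), and the others after their values were seen. Each mouse is 1 replicate, and the test was checked on simulated data. Alternatives changed footprint length, overlap, exonic restriction, gene list, scale, tested genes, copies, snoRNAs and mice. Some genes and sequences are not reported here.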

Additional observations from a re-analysis of the deposited data

Results flagged for a closer look

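Severe EAE mouse 5 stood apart from the other severe mice. The paper also describes this animal as an outlier of the severe group, in remission shortly before the experiment ended. Its footprints in ribosomal protein genes numbered 210, against 5 to 31 in the other 3, and they covered 19148 nt, against 467 to 2979 nt. In both cases the gap to the nearest severe mouse took up most of the range of the group (0.873 and 0.866 of it, above Dixon's limit for 4 samples). By gene, severe mouse 5 stood apart in covered length in 45 of the 80 genes (56.2%) and in 25.6% of all protein-coding genes, which is 60.8% and 86.7% of those with a footprint in this mouse. In 43 of the 45 the other severe mice were at 0, where any footprint in mouse 5 sets it apart. Chance alone would set about 1 in 20 groups of normally distributed values apart, a rate that does not apply where the other mice are at 0. The mouse also had the most footprints of any mouse over the whole genome, and the part of depth was not tested.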

How the results depend on the processing

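The mean number of ribosomal protein genes footprinted was 8.24 higher in EAE than in naive mice and stayed higher without any single mouse (2.33 to 14), but was -5.33 with the replicate block over mouse numbers 1, 2 and 3, which are shared labels of different animals (smallest possible exact sign-flip p = 0.25). The share of footprints in these genes was higher by 1.24 percentage points, by 0.306 for footprints with no near-identical copy, and by 0.804 to 1.41 without any single mouse. Covered length was higher by 1691 nt, and by -191 nt (without severe mouse 5) to 2983 nt without single mice. The exonic share of footprints in these genes was -2.84 percentage points in EAE against naive. It was 0.686 for footprints overlapping no other gene, 1.71 for those on no snoRNA, -10.7 for those with no copy, and -5.54 to 1.07 without single mice (1.07 without naive mouse 3). The cause was not tested.

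Rpl32 as the 1 gene with every EAE mouse above naive became 0 genes for footprints overlapping no other gene, for those on no snoRNA and for those with no copy, and 1 to 2 without single mice (Rpl28 joined without severe mouse 2). Genes with every EAE mouse below naive numbered 0, and 0 to 1 without single mice (Rps6 without naive mouse 1, Rps20 without naive mouse 2). Genes with a shared stretch fell from 57 to 11 for footprints with no copy, and were 42 to 57 without single mice. No gene passed after adjustment in any of 15 alternatives (smallest adjusted p 0.241 to 0.890, exact permutation test with Benjamini-Hochberg), and 0 to 4 ribosomal protein genes had an unadjusted exact p under 0.05, beside 0 to 655 of all genes tested (655 without severe mouse 5, with 4 ribosomal protein genes). The lowest p that the exact permutation test can give limited these alternatives as well. The settings without snoRNAs, without copies and with Rps3a1 were added after seeing the data. The depth behind each footprint is unknown, so a gene without one cannot be called unbound.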
